A study of Ovis aries with 48 samples.

Results

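LOC105606646 is a long noncoding RNA (lncRNA) row of the deposited small RNA tables, and LOC114109215 and LOC114109206 are small nucleolar RNAs (snoRNAs) annotated inside it, in the imprinted DLK1-DIO3 region of the sheep genome. These 3 features were followed, of 4920 listed in the lncRNA, snoRNA, microRNA and snRNA tables, across 4 fat depots and 2 prenatal treatments. They were chosen by their measured levels in control sheep of the T cohort, where they stood high in epicardial fat, and LOC114109206 low in subcutaneous fat. Differences that involve those control sheep are therefore given as a description with no test. Depot differences were tested in prenatal T sheep and in a second cohort, and treatment in the second cohort.

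The DLK1-DIO3 region is expressed from one parental chromosome at a time. The paternal copy gives the protein-coding genes DLK1, whose product holds back fat cell differentiation, RTL1, and DIO3, a deiodinase that inactivates thyroid hormone. The maternal copy gives noncoding RNAs: the lncRNA GTL2, called MEG3 in human, tandem arrays of C/D box snoRNAs processed from introns of a long host transcript, and a large cluster of microRNAs. Box C/D snoRNAs as a class guide 2′-O-methylation of ribosomal RNA, but most snoRNAs of this region in human and mouse have no assigned target. In sheep the region is known for callipyge, a muscular hypertrophy inherited through the father. The parental origin of the reads was not measured here.

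The sheep were born to mothers treated from gestational day 30 to 90. In the prenatal T group of the T cohort the mothers received testosterone propionate, 100 mg in corn oil per intramuscular injection and 2 injections per week, and this cohort has its own control group, whose handling the labels do not detail. In the BPA group of the BPA cohort the mothers were given daily bisphenol A in corn oil under the skin, 0.5 mg per kg of body weight each day, and its control group received corn oil. Subcutaneous, visceral, epicardial (around the heart) and perirenal (around the kidney) fat came from the same 8 sheep of the T cohort (32 libraries), and visceral and subcutaneous fat from 8 other sheep (16 libraries), with 4 sheep in each of the 12 groups. The animals' age is not stated in the labels. The samples are dissected fat, so that fewer cells of a type and less RNA per cell cannot be told apart.

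The 48 libraries held 260804 to 1742991 reads in the 4 RNA classes, of which 28452 to 198905 were lncRNA and 3201 to 35207 snoRNA reads. Levels below are normalised reads, that is reads divided by a factor that puts all libraries of a cohort on 1 scale within an RNA class, and levels of the 2 cohorts are on separate scales. Numbers in the labels divide the libraries into an early set (up to 48) and a later set (from 81), 24 libraries each. What the sets were is not stated. They are spread unevenly: in prenatal T sheep the early set held 4 of 4 subcutaneous, 4 of 4 perirenal, 2 of 4 epicardial and 1 of 4 visceral libraries, while all 4 epicardial libraries of control sheep were later. In the BPA cohort, later libraries made up 3 of 4 visceral and 4 of 4 subcutaneous libraries of BPA sheep, against 1 of 4 visceral and 3 of 4 subcutaneous libraries of control sheep.

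Levels of the snoRNAs within a group differed between the sets. Over the 5 groups of prenatal T sheep and the BPA cohort that held both sets, LOC114109215 was 2.22 log2 units higher in later than in early libraries, with a higher mean in 5 of 5 groups and every later library above every early one in 4 (exact stratified permutation over 1536 arrangements, two-sided p = 0.00195, Benjamini-Hochberg adjusted p = 0.00586 over the 3 features). LOC114109206 was 1.51 higher (4 of 5 groups, exact p = 0.0143, adjusted p = 0.0215) and LOC105606646 was 0.36 higher (4 of 5 groups, exact p = 0.233, adjusted p = 0.233). Whether these differences are unequal among the features was not tested. With the 3 groups of T-cohort controls that held both sets added, the values were 2.27, 1.08 and 0.42. The comparison was chosen after seeing the data and takes the libraries of 1 sheep as independent. Depot differences of the 3 features that rest on both sets are therefore given also within 1 set or with a set term in the fit, which allows for a constant shift between the sets.

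LOC105606646 is listed as a lncRNA by the authors. RefSeq (assembly ARS-UI_Ramb_v3.0) annotates the same locus as a protein-coding gene. Within its span lie 33 snoRNAs and 49 microRNAs of the tables. GTL2 and 5 microRNAs lie between DLK1 and LOC105606646, and GTL2 was near the lower limit, with a mean of 3.06 normalised reads (T cohort) and 2.06 (BPA cohort). LOC105606646 was abundant, ranking 13th of 2973 lncRNA rows by mean level in the T cohort and 16th in the BPA cohort, with 0.673% and 0.326% of lncRNA reads. LOC114109215 ranked 37th and 73rd of 694 snoRNAs, and LOC114109206 123rd and 223rd. Of all snoRNA reads inside the locus, LOC114109215 made up 39.2% (T cohort) and 37.9% (BPA cohort), and LOC114109206 6.41% and 5.03%.

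The lncRNA row cannot be read as a full-length transcript. The library kit captures short RNA, and how reads shared between the host row, its nested RNAs and near-identical snoRNA copies were divided, and whether strand was used, is not stated in the labels or files. Reads of the lncRNA row exceeded those of all nested snoRNAs together in 48 of 48 libraries, by at least 16 reads, so the host row could hold them in every library. Nested snoRNA reads came to 20.8% to 66.7% of the lncRNA row's reads in later libraries (median 39.1%) and to 4.96% to 24.7% in early libraries (median 10.1%). Nested microRNAs had 2.46 to 9.36 reads for each read of the lncRNA row, more than it could hold.

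**Figure D1:**
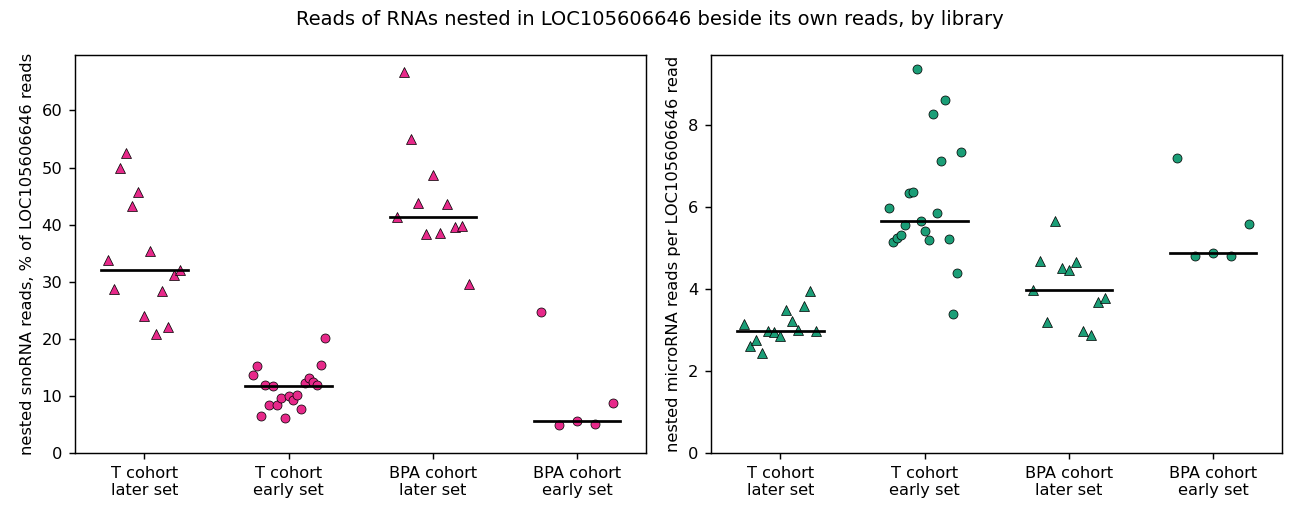
Reads of snoRNAs nested in LOC105606646 as a percent of its own reads (left, y axis) and reads of nested microRNAs per LOC105606646 read (right, y axis), with 1 point per library, by cohort and library set (x axis), and a bar at the median. The snoRNA percentage was 20.8% or more in the later libraries and 24.7% or less in the early ones.

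In prenatal T sheep, LOC105606646 was lowest in subcutaneous fat. Its normalised reads were 144.4, 177.2, 259.3 and 130.7 in subcutaneous fat of prenatal T sheep 48, 185, 233 and 255. In the other depots of the same sheep, in the same order, it had 403.2, 351.1, 1263.5 and 425.6 in visceral fat, 995.6, 755.8, 1072.5 and 778.3 in epicardial fat, and 437.0, 390.8, 1025.8 and 2395.4 in perirenal fat. Every subcutaneous value was below every value of the other 3 depots, which holds for 0.667% of 150 lncRNAs in that direction. Perirenal fat of sheep 255 and visceral fat of sheep 233 stood above the other libraries of their depots.

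By group mean the order in prenatal T sheep was subcutaneous (177.9 ± 57.7), visceral (610.8 ± 436.2), epicardial (900.5 ± 157.6) and perirenal (1062.2 ± 934.6 normalised reads, SD, n = 4 each). The last 3 depots overlapped, and by median the order of epicardial (887.0) and perirenal fat (731.4) was exchanged. Subcutaneous fat minus the mean of the other 3 depots gave a log2 difference of -2.07 (SE 0.45, 95% interval -3.01 to -1.12, limma adjusted p = 0.0196), the smallest p of the 150 lncRNAs tested, of which 0.667% were called lower. Without sheep 48, 185 or 233 the difference was -2.11, -2.29 and -2.06 and was not called (adjusted p = 0.186, 0.121 and 0.176), and without sheep 255 it was -1.82 and was called (adjusted p = 0.0466). All 4 subcutaneous libraries were early. Among early libraries alone, where visceral fat has the single library of sheep 255, the difference was -1.89 (adjusted p = 0.0296), and with both a set term and sheep as a block it was -1.82 (adjusted p = 0.0557). Subtracting nested snoRNA reads from the lncRNA row left -1.86 (adjusted p = 0.0420).

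Epicardial fat minus the other 3 depots gave 1.09 for LOC105606646 (SE 0.45, 95% interval 0.15 to 2.03, adjusted p = 0.273), which was not called. 2% of lncRNAs were called higher in that comparison. Perirenal fat gave 0.90 (SE 0.45, adjusted p = 0.285) and visceral fat 0.08 (SE 0.45, adjusted p = 0.939). The epicardial difference was 0.99 with a set term (adjusted p = 0.278), the perirenal one 1.07 (adjusted p = 0.455) and the visceral one -0.17 (adjusted p = 0.899).

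**Figure D2:**
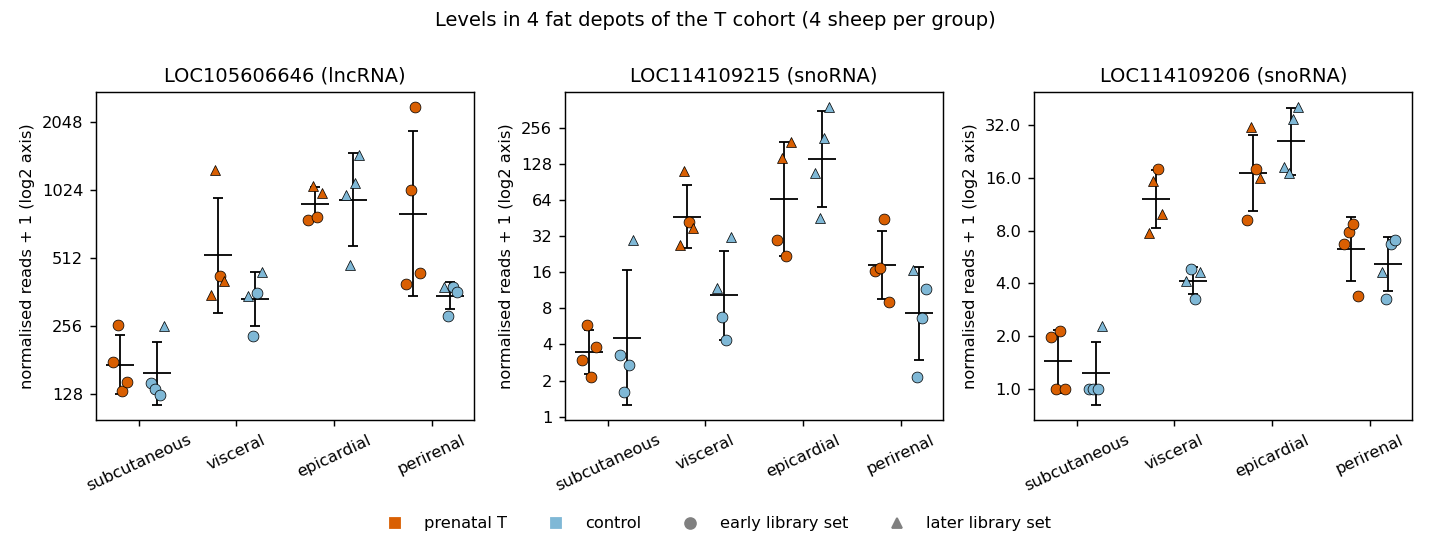
Normalised reads + 1 (y axis, log2 scale) of LOC105606646, LOC114109215 and LOC114109206 in 4 depots of the T cohort (x axis), with prenatal T sheep in orange left of control sheep in blue, 1 point per sheep, circles for early and triangles for later libraries, and bars for the mean ± SD on the log2 scale (n = 4). Subcutaneous fat holds the lowest values in prenatal T sheep for all 3 features.

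The snoRNAs followed the same depot order at the low end, over a wider range. LOC114109215 had 2.8, 1.9, 4.8 and 1.2 normalised reads in subcutaneous fat of prenatal T sheep 48, 185, 233 and 255, from 1 to 4 reads per library. In the same order it had 35.9, 26.1, 109.2 and 41.2 in visceral fat, 191.6, 28.9, 142.1 and 20.99 in epicardial fat, and 8.0, 15.2, 16.5 and 42.98 in perirenal fat. Every subcutaneous value was again below every other value, as for 3.39% of 177 snoRNAs. In epicardial fat the later libraries (sheep 48 and 233) stood at 191.6 and 142.1 and the early ones (sheep 185 and 255) at 28.9 and 20.99, inside the range of early perirenal libraries.

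Subcutaneous fat minus the other 3 depots gave -3.47 for LOC114109215 (SE 0.56, 95% interval -4.65 to -2.29, adjusted p = 0.000545), and 3.95% of 177 snoRNAs were called lower. It was called without any 1 of the 4 sheep (-3.62 to -3.29), and among early libraries alone it was -2.97 (adjusted p = 0.00031). Epicardial fat minus the others gave 2.19 (SE 0.56, 95% interval 1.01 to 3.37, adjusted p = 0.0337), with 3.39% of snoRNAs called higher. It was not called among early libraries alone (0.89, adjusted p = 0.451) or without 3 of the 4 sheep in turn: without sheep 48 it was 1.53 (adjusted p = 0.289), without 185 2.43 (adjusted p = 0.199) and without 233 2.03 (adjusted p = 0.238). Over all 16 libraries with a set term it was 1.78 (adjusted p = 0.0306). Visceral fat gave 1.54 (SE 0.56, adjusted p = 0.0921) and perirenal fat -0.26 (SE 0.56, adjusted p = 0.775), and with a set term they were 0.59 (adjusted p = 0.695) and 0.42 (adjusted p = 0.732).

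LOC114109206 was at or near the limit of detection in subcutaneous fat. Prenatal T sheep 48, 185, 233 and 255 had 0, 1.0, 0 and 1.2 normalised reads there, from 0 or 1 read per library, and a count of 0 allows up to 3 reads, or 3.61 to 4.24 normalised reads in the 2 libraries at 0. In the same order the levels were 9.0, 6.8, 14.3 and 16.9 in visceral fat, 14.9, 8.3, 30.3 and 17.1 in epicardial fat and 2.4, 5.7, 6.9 and 7.7 in perirenal fat. Every epicardial value lay above every perirenal one, visceral and epicardial fat overlapped, and visceral fat of sheep 185 lay within the perirenal range. The fitted subcutaneous difference was -2.92 (SE 0.39, 95% interval -3.75 to -2.10, adjusted p = 0.000151), the smallest p of 177 snoRNAs, and was called without any 1 sheep (-3.23 to -2.58) and among early libraries alone (-2.98, adjusted p = 0.000464). At this level its size depends on the pseudocount, with -3.54 at 0.5 and -1.48 at 5.

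Epicardial fat minus the others gave 1.83 for LOC114109206 (SE 0.39, 95% interval 1.0 to 2.66, adjusted p = 0.0191). Among early libraries alone it was 1.25 (adjusted p = 0.334), without sheep 48 1.67 (adjusted p = 0.155), without 185 2.11 (adjusted p = 0.0808) and without 233 1.55 (adjusted p = 0.238). With a set term it was 1.80 (adjusted p = 0.0216). Visceral fat gave 1.18 (SE 0.39, adjusted p = 0.0921) and perirenal fat -0.08 (SE 0.39, adjusted p = 0.917), and with a set term they were 1.10 (adjusted p = 0.193) and -0.03 (adjusted p = 0.961).

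Control sheep of the T cohort, on which the features were chosen, had the following levels. LOC105606646 was at 142.6, 134.4, 125.9 and 254.7 normalised reads in subcutaneous fat of control sheep 098, 131, 132 and 201, at 346.6, 230.5, 359.7 and 443.9 in visceral fat, at 972.9, 477.4, 1100.1 and 1464.4 in epicardial fat and at 378.9, 282.9, 381.9 and 361.0 in perirenal fat. LOC114109215 was, in the same order, at 2.3, 0.6, 1.7 and 28.9 in subcutaneous, 10.9, 5.7, 3.4 and 30.2 in visceral, 105.5, 43.9, 209.0 and 379.5 in epicardial and 15.7, 1.1, 5.7 and 10.6 in perirenal fat. In epicardial fat all values of both, and of LOC114109206, lay above those of the other depots, a pattern on which the features were chosen. All 4 epicardial libraries were of the later set. LOC114109206 was at 0, 0, 0 and 1.3 in subcutaneous, 3.1, 3.8, 2.2 and 3.6 in visceral, 17.4, 16.1, 33.7 and 39.7 in epicardial and 3.6, 2.3, 5.7 and 6.1 in perirenal fat. In subcutaneous fat the highest library of each of the 3 features was that of sheep 201, the single later library of the group.

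Epicardial fat minus the mean of the other depots was thus 1.09 for LOC105606646, 2.19 for LOC114109215 and 1.83 for LOC114109206 in prenatal T sheep, against 1.81, 4.33 and 3.12 in these control sheep, on the log2 scale. Subcutaneous fat minus the others was -2.07, -3.47 and -2.92 in prenatal T sheep, against -1.60, -2.26 and -2.74 in control sheep. The control levels chose the features, which can enlarge the control differences. All 4 epicardial libraries of control sheep were later, against 2 of 4 in prenatal T sheep. Whether the 2 arms differ was not tested.

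The other RNAs of the locus were set beside these values in prenatal T sheep. Of 31 further snoRNAs inside LOC105606646, 6 passed the filter of a mean of 5 normalised reads, which a snoRNA can pass through 1 depot where it is high, so the counts describe those 6 only. In subcutaneous fat 5 of the 6 were lower, with a median log2 difference of -2.66 against -0.26 over all snoRNAs tested. The 7 snoRNAs called lower among all 177 (3.95%) were these 5, LOC114109215 and LOC114109206. In epicardial fat 4 of the 6 were higher, with a median of 1.83 against -0.00. The 6 called higher among all 177 (3.39%) were these 4, LOC114109215 and LOC114109206. With a set term the counts among the 6 listed were again 5 and 4, where 9.6% of all snoRNAs were called lower and 3.39% higher. Among early libraries alone 4 passed the filter, of which 3 were lower in subcutaneous fat (12.7% of all snoRNAs) and 0 higher in epicardial fat (0%). LOC114109209, the most abundant of them, was at -2.87 in subcutaneous (SE 0.41, adjusted p = 0.000181) and 1.98 in epicardial fat (SE 0.41, adjusted p = 0.0191). LOC114109213, the next in level, was at -1.48 (SE 0.71, adjusted p = 0.252) and 1.33 (SE 0.71, adjusted p = 0.307), neither called.

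Of the 49 microRNAs inside the locus 29 passed the filter. In subcutaneous fat 12 were lower and 0 higher, with a median of -1.31 against -0.10 over all microRNAs, of which 22% were called lower. Shares over all microRNAs include those of the region. Of 18 called lower among 82, 12 were these and 3 lay between DLK1 and the locus. In epicardial fat 1 was higher and 0 lower (median 0.43 against 0.05, with 2.44% of all called higher), and in perirenal fat 3 were higher (median 0.68 against 0.02, with 6.1% called higher). Once a set term was added, 13 were lower in subcutaneous fat (25.6% of all), 1 higher in epicardial fat (2.44%) and 0 in perirenal fat (1.22%). Among early libraries alone these counts were 12 (23.2%), 0 (0%) and 1 (2.44%). MIR379, the most abundant, was at -1.16 in subcutaneous (SE 0.35, adjusted p = 0.0196), 0.19 in epicardial (adjusted p = 0.873) and 1.31 in perirenal fat (adjusted p = 0.0239), and MIR432 at -1.35 (SE 0.31, adjusted p = 0.00374), 0.13 (adjusted p = 0.910) and 0.19 (adjusted p = 0.698). The microRNA scale itself leans on the region, whose members were 23 of the 69 features (33.3%) that set it in the T cohort, against 1 of 132 for snoRNAs and 2 of 119 for lncRNAs. With each library scaled to its total microRNA reads, 32 microRNAs inside the locus passed the filter, 10 of them lower in subcutaneous fat (median -1.55 against -0.46 over all 85, of which 16.5% were called lower) and 1 higher in epicardial fat (median 0.73 against 0.36, with 2.35% of all called higher).

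**Figure D3:**
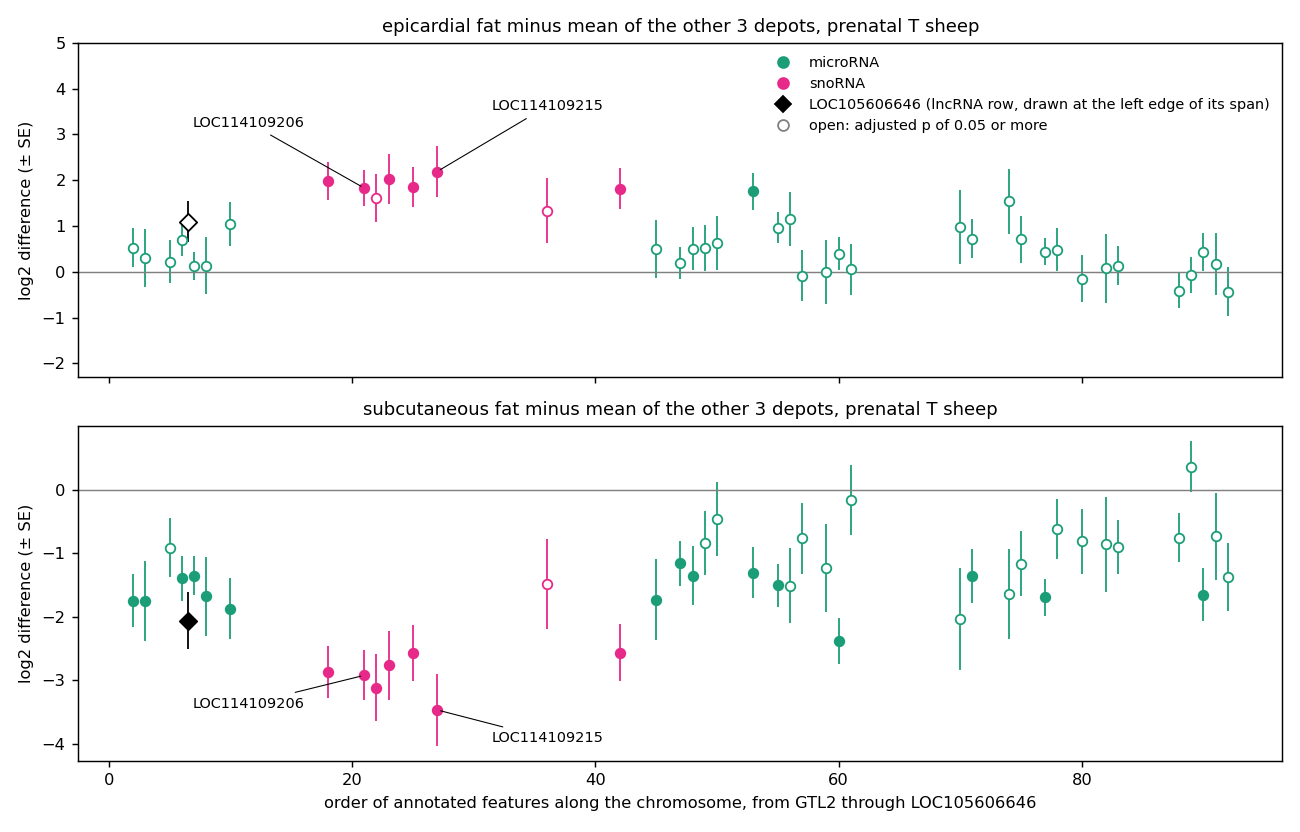
Log2 difference ± SE (y axis) of each RNA of the region that passed the filter, in epicardial (top) and subcutaneous fat (bottom) minus the mean of the other 3 depots of prenatal T sheep, in the order of the annotation from GTL2 through LOC105606646 (x axis). Filled symbols have an adjusted p under 0.05. The snoRNAs form a group between stretches of microRNAs, at 1.33 to 2.19 in epicardial fat and -3.47 to -1.48 in subcutaneous fat.

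Visceral fat was set against subcutaneous fat of the same sheep in both cohorts. Counts of sheep use this pairing, while the fitted differences, unless a block is named, took the libraries of 1 sheep as independent. LOC105606646 was higher in visceral fat in 4 of 4 prenatal T, 4 of 4 BPA, and 4 of 4 control sheep of each cohort. In prenatal T sheep the log2 difference was 1.61 (SE 0.55, 95% interval 0.45 to 2.76, adjusted p = 0.114) and limma called 0 of 150 lncRNAs, with an unadjusted p under 0.05 for 25, 0 called by edgeR and 10 by DESeq2. DESeq2 gave the lncRNA row 1.78 (adjusted p = 0.0270), and limma with a set term 1.29 (adjusted p = 0.424).

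In the same prenatal T sheep both snoRNAs were higher in visceral than in subcutaneous fat, LOC114109215 by 3.75 (SE 0.69, 95% interval 2.30 to 5.20, adjusted p = 0.00303) and LOC114109206 by 3.08 (SE 0.48, 95% interval 2.06 to 4.09, adjusted p = 0.00108), where 6.21% of 177 snoRNAs were called higher. Both calls held without any 1 of the 4 sheep. The 4 subcutaneous libraries were early and 3 of the 4 visceral ones later. With a set term the differences were 2.54 (adjusted p = 0.0187) and 2.98 (adjusted p = 0.00717), and the single early visceral library, that of sheep 255, had 41.2 and 16.9 normalised reads, above all 4 subcutaneous libraries.

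**Figure D4:**
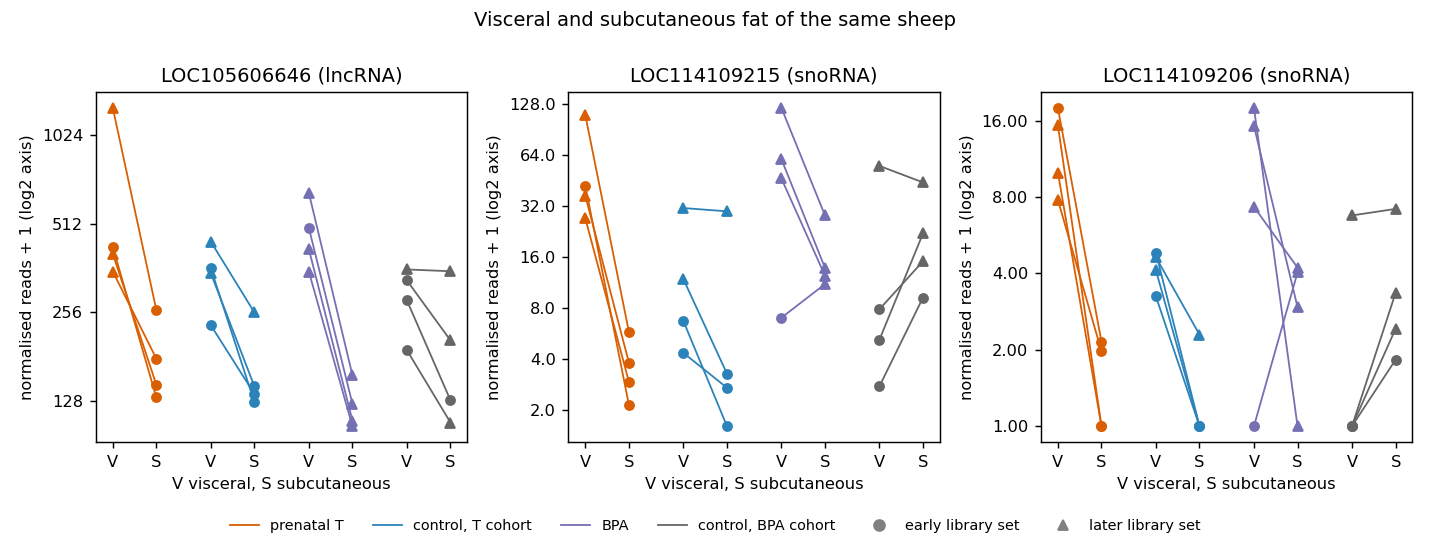
Normalised reads + 1 (y axis, log2 scale) in visceral (V) and subcutaneous (S) fat, with a line joining the 2 depots of each sheep, for 4 groups of 4 sheep and each of the 3 features, circles for early and triangles for later libraries. For LOC105606646 each of the 16 lines slopes down to subcutaneous fat, while for the snoRNAs lines of the BPA cohort run both ways.

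The BPA cohort was not used to choose the features. In BPA sheep 910, 918, 977 and 984, LOC105606646 had 350.8, 493.8, 649.4 and 418.1 normalised reads in visceral fat, against 104.3, 124.3, 155.7 and 108.9 in subcutaneous fat. The groups did not overlap, as for 3.21% of 156 lncRNAs in that direction. The log2 difference was 1.93 (SE 0.36, 95% interval 1.18 to 2.68, adjusted p = 0.00317), with 1.92% of lncRNAs called higher, and it was called without any 1 of the 8 sheep (1.88 to 1.99). Among later libraries alone it was 1.90 (adjusted p = 0.0156), and with nested snoRNA reads subtracted 2.50 (adjusted p = 0.000555).

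In control sheep 902, 908, 924 and 928 of that cohort, LOC105606646 had 356.8, 279.9, 327.5 and 189.5 normalised reads in visceral fat, against 351.9, 127.8, 204.7 and 107.3 in subcutaneous fat. These groups overlapped, through subcutaneous fat of sheep 902. The difference was 0.66 (SE 0.36, 95% interval -0.09 to 1.41, adjusted p = 0.258), and 3.21% of lncRNAs were called higher. With a set term it was 0.82 (adjusted p = 0.151). Among later libraries alone it was 0.85, from the visceral library of sheep 902 against 3 subcutaneous libraries. In sheep 902 itself the levels were 356.8 and 351.9, so the 0.85 cannot separate depot from sheep. The difference between BPA and control sheep in this depot contrast was 1.27 (SE 0.50, 95% interval 0.21 to 2.33, unadjusted p = 0.0218, limma adjusted p = 0.656), which was not called, and with a set term 1.19 (adjusted p = 0.562).

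LOC114109215 had 45.7, 6.0, 120.9 and 59.8 normalised reads in visceral fat of BPA sheep 910, 918, 977 and 984, against 11.5, 10.1, 27.3 and 12.9 in subcutaneous fat. Visceral fat was higher in 3 of 4 sheep, and the visceral library of the fourth, sheep 918, was the single early one. The difference was 1.37 (SE 0.87, 95% interval -0.46 to 3.21, adjusted p = 0.662). With a set term it was 2.06 (adjusted p = 0.0159), and among later libraries alone 2.20 (adjusted p = 0.00861).

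In control sheep 902, 908, 924 and 928 of the cohort LOC114109215 had 54.4, 1.8, 4.2 and 6.9 in visceral fat, against 43.3, 8.3, 21.1 and 14.2 in subcutaneous fat. Visceral fat was higher in 1 of 4 sheep, sheep 902, whose visceral library was the single later one. The difference was -1.11 (SE 0.87, adjusted p = 0.372) and with a set term 0.26 (adjusted p = 0.779). Among later libraries alone it was 1.17, where visceral fat has only the library of sheep 902. Of 199 snoRNAs limma called 0 in visceral against subcutaneous fat of BPA sheep and 0 in control sheep, with an unadjusted p under 0.05 for 22 and 57, 0 and 0 called by edgeR and 1 and 39 by DESeq2.

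LOC114109206 had a mean of 3.89 normalised reads in the BPA cohort, under the filter, and is given without a test. It had 16.97, 0, 14.2 and 6.3 normalised reads in visceral fat of BPA sheep 910, 918, 977 and 984, against 0, 3.0, 1.9 and 3.2 in subcutaneous fat. Control sheep 902, 908, 924 and 928 had 5.8, 0, 0 and 0 in visceral fat, against 6.2, 0.8, 2.3 and 1.4 in subcutaneous fat. All 4 visceral libraries at 0 were early, where a count of 0 allows up to 4.22 to 6.04 normalised reads.

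**Figure D5:**
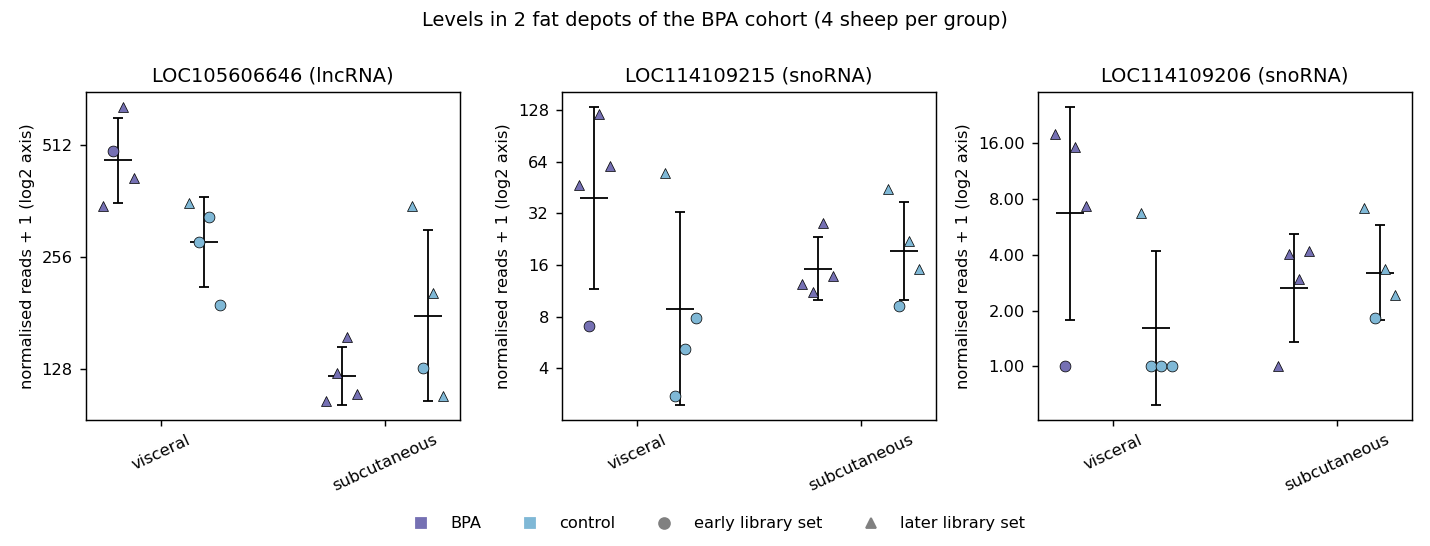
Normalised reads + 1 (y axis, log2 scale) of the 3 features in visceral and subcutaneous fat of the BPA cohort (x axis), BPA sheep in purple left of control sheep in blue, 1 point per sheep, circles for early and triangles for later libraries, bars for the mean ± SD on the log2 scale (n = 4). For LOC105606646 the 4 visceral values of BPA sheep, 350.8 to 649.4, lie above the 4 subcutaneous ones, 104.3 to 155.7.

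The microRNAs of the locus were also higher in visceral fat of the BPA cohort, in 16 of the 21 that passed the filter in BPA sheep (median 1.45 against -0.17 over all 73 microRNAs, of which 30.1% were called higher) and in 6 of 21 in control sheep (median 0.75 against -0.04, with 16.4% called higher). Those shares include the region's own microRNAs. Of 22 called higher in BPA sheep, 16 were inside the locus and 3 between DLK1 and it. In control sheep these were 6 and 2 of 12. MIR379 was higher in BPA sheep by 1.35 (SE 0.31, adjusted p = 0.00141) and at 0.46 in control sheep (SE 0.31, adjusted p = 0.246). MIR432 was higher in both, by 1.86 and 1.77 (SE 0.32 each, adjusted p = 0.000232 and 0.000582). Members of the region were 26 of the 74 features that set this scale. With libraries scaled to total microRNA reads, 17 of 24 microRNAs inside the locus were higher in BPA sheep (median 1.55 against 0.14 over all 76, of which 30.3% were called higher) and 5 of 24 in control sheep (median 0.74 against -0.02, with 14.5% called higher). On the first scale with a set term, 16 of 21 were higher in BPA sheep (30.1% of all). In control sheep these were 8 of 21 (19.2%). Among later libraries alone, 14 of 21 were higher in BPA sheep (27.4% of all). For control sheep that fit has 1 visceral library, that of sheep 902, so no count is given. Their median there was 0.36 against 0.08 over all, which cannot separate depot from sheep.

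Prenatal T was set beside control on the mean of the 4 depots of each sheep. The T-cohort control libraries chose the features, so the differences are given with no test. The log2 difference was 0.48 for LOC105606646 (SE 0.30), 0.50 for LOC114109215 (SE 0.55) and 0.36 for LOC114109206 (SE 0.31), with 4 sheep in each group.

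Values within single depots are likewise given with no test. In perirenal fat LOC105606646 was at 390.8 to 2395.4 normalised reads in prenatal T sheep, against 282.9 to 381.9 in control sheep, a log2 difference of 1.21 (SE 0.62). The 2 groups did not overlap, as for 1.32% of 151 lncRNAs in that direction, and the gap between them was small beside the spread within prenatal T sheep. In visceral fat LOC114109206 was at 6.8 to 16.9 in prenatal T sheep, against 2.2 to 3.8 in control sheep, a difference of 1.54 (SE 0.31), where 5.2% of 173 snoRNAs did not overlap in that direction. The control values rest on 2 to 8 reads per library.

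LOC114109215 was at 26.1 to 109.2 in visceral fat of prenatal T sheep, against 3.4 to 30.2 in control sheep (2.18, SE 0.75), and later libraries were 3 of 4 in prenatal T and 2 of 4 in control sheep. In epicardial fat it was at 20.99 to 191.6 in prenatal T sheep, against 43.9 to 379.5 in control sheep (-1.10, SE 1.03). There the 2 later prenatal T libraries, at 191.6 and 142.1, lay inside the range of the 4 controls, all later, and the 2 early ones below it. The other depot differences were -0.06 (epicardial), 0.12 (subcutaneous) and 0.64 (visceral) for LOC105606646, -0.40 (subcutaneous) and 1.33 (perirenal) for LOC114109215, and -0.60 (epicardial), 0.22 (subcutaneous) and 0.28 (perirenal) for LOC114109206, with groups that overlapped.

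BPA was compared with control within each depot. In visceral fat the log2 difference was 0.73 for LOC105606646 (SE 0.36, 95% interval -0.02 to 1.48, adjusted p = 0.571) and 2.15 for LOC114109215 (SE 0.87, 95% interval 0.31 to 3.98, adjusted p = 0.372). Among later libraries alone, 3 of BPA and 1 of control sheep, they were 0.36 (adjusted p = 0.957) and 0.34 (adjusted p = 0.884). In subcutaneous fat they were -0.54 (SE 0.36, 95% interval -1.29 to 0.21, adjusted p = 0.903) and -0.34 (SE 0.87, 95% interval -2.17 to 1.5, adjusted p = 0.995). Among later libraries alone, 4 of BPA and 3 of control sheep, these were -0.70 (adjusted p = 0.958) and -0.69 (adjusted p = 0.986). Limma called 0 of 156 lncRNAs in either depot, with an unadjusted p under 0.05 for 8 and 8. It called 0 of 199 snoRNAs, with 23 such in visceral and 4 in subcutaneous fat. edgeR and DESeq2 called 0 in each.

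The 3 features varied together across the 32 libraries of the T cohort, as a description over libraries that share sheep, depots and library sets. Pearson's r of log2 levels was 0.84 between LOC105606646 and LOC114109215, 0.84 between LOC105606646 and LOC114109206, and 0.88 between the snoRNAs. The T-cohort libraries include the controls whose depot levels chose the features, which can raise r across them. The lncRNA row could hold reads of its nested snoRNAs, which can raise its r with them in either cohort. The T-cohort values therefore cannot decide whether the 3 features vary together beyond that choice. After group means were subtracted, r was 0.70, 0.49 and 0.60, and over the 16 libraries of the BPA cohort it was 0.40, 0.38 and 0.89.

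Among the 436 other features with a mean of at least 5, those most like LOC105606646 were all annotated inside it. They were the snoRNAs LOC114109209 (r = 0.90) and LOC114109212 (0.87) and the microRNAs MIR487B (0.88), MIR495 (0.85) and MIR411A (0.84). Within groups their r was 0.62 to 0.71, and in the BPA cohort 0.67 to 0.90. The search used the same T-cohort libraries, with the controls that chose the features. The host row could also hold reads of its nested snoRNAs. Those most like LOC114109215 were the nested snoRNA LOC114109205 (0.92), MIR127, between DLK1 and the locus (0.90), the lncRNA LOC114109082, which has no entry in the RefSeq table used (0.88), and LOC114109212 and LOC114109209 (0.82 and 0.79). For LOC114109206 they were LOC114109209 (0.88), LOC114109205 (0.85), MIR329B (0.83), MIR127 (0.82) and LOC114109082 (0.81). MIR329B fell to an r of 0.17 within groups, against 0.50 to 0.64 for the other 4.

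Few microRNA markers of other tissues were in the tables. MIR133, of striated muscle, was the single one of 6 listed. Its CPM, here per microRNA read total, was 372 to 25852 in epicardial fat of prenatal T sheep (median 7318), against 132 to 497 in subcutaneous (median 332), 70.6 to 807 in visceral (median 174) and 193 to 334 in perirenal fat (median 286) of the same sheep. Its median was thus highest in epicardial fat, where the snoRNAs were also high, and its part in their level was not tested. MIR150, of lymphocytes (1 of 4 listed), had a CPM of 2757 to 5410 in epicardial, 1375 to 4219 in subcutaneous, 2303 to 5707 in visceral and 879 to 5242 in perirenal fat of prenatal T sheep. The sum of MIR200A, MIR200B and MIR200C, of epithelium and mesothelium (3 of 6 listed), had a CPM of 4.49 to 408 in visceral and 12.5 to 33.8 in subcutaneous fat of prenatal T sheep, and 212 to 430 and 28.9 to 332 in those of BPA sheep. MIR143, of smooth muscle (1 of 2 listed), had a CPM of 107027 to 175334 in perirenal fat, against 24368 to 73833 in subcutaneous fat of prenatal T sheep. Whether these tissues bear on the depot differences was not tested.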

How the data were processed

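Small RNA libraries were prepared from total RNA of fat, per the labels' protocols. The submitters' processing notes name STAR 2.6.0c, cutadapt 3.2 and featureCounts 1.6.1 but no genome build. The deposited values are a signal that the authors made by dividing the reads of a feature by the library's size factor, set separately for each depot and RNA class. Whole reads were recovered from 100% of values (tolerance 1e-05) and rescaled by the median ratio over all libraries of a cohort within a class, so that depots share a scale.

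Features with a mean of at least 5 were tested as log2(value + 1) with limma 3.58.1 (R 4.3.3, trend), 1 fit per class, adjusted over the class by Benjamini-Hochberg, and called at an adjusted p under 0.05. A fold change on this scale understates that of low features. Intervals and floors of 3 reads cover counting error or the spread between sheep only. Prenatal T sheep (16 libraries) and the BPA cohort (16) had a fit each, and prenatal T was set beside control on sheep means, without a test in the text because those controls chose the features. The fit was checked on simulated data. edgeR 4.0.16 and DESeq2 1.42.0 on recovered reads, other scalings, filters and pseudocounts, a library set term and each sheep left out were alternatives.

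Depots of 1 sheep pair the libraries per the labels. The main fits did not use this pairing, and sheep as a block was an alternative. Deviations from group means in the lncRNA and snoRNA tables had a median r of 0.166 within a sheep (over 0.1 in 26 of 48 pairs) and -0.02 between sheep in the T cohort, and 0.194 (5 of 8) and -0.02 in the BPA cohort. Over 72 pairs of libraries of 1 group, chi-square per degree of freedom was 4.84 or more, so none was counted as a duplicate.

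The features, lists and tests were chosen with earlier results of these data known. Beside the 3 features, the 2 most abundant of each list in the T cohort and the 5 features of highest r per feature are named. In the BPA cohort MIR409 (mean of 150.4 normalised reads) stood above MIR432 (142.4). RefSeq names (ARS-UI_Ramb_v3.0) matched 46.1% of lncRNA, 89.5% of snoRNA and 100% of microRNA rows and were used for names and neighbourhood only.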

Additional observations from a re-analysis of the deposited data

Results flagged for a closer look

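Of 36 sets of 4 sheep looked at (3 features in 12 groups), 7 had 1 library far from the other 3. All 7 were later libraries. The rule was used on levels that were not log-transformed, so its rate by chance is not known here. Sets of the 3 features share libraries and are not independent. In both flagged sets of LOC114109206 the other 3 libraries held 0 reads. In visceral fat of prenatal T sheep, sheep 233 had 1263.5 for LOC105606646. In subcutaneous fat of T-cohort controls sheep 201 was high for LOC105606646 (254.7 normalised reads), LOC114109215 (28.9) and LOC114109206 (1.29, from 3 reads), and this was the single later library of the group. In subcutaneous fat of BPA sheep, all later, sheep 977 had 27.3 for LOC114109215. In visceral fat of BPA-cohort controls sheep 902, the single later library there, had 54.4 for LOC114109215 and 5.77 for LOC114109206 (7 reads).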

How the results depend on the processing

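No alternative reversed a called difference, and some uncalled ones changed sign. With a set term and sheep as a replicate block together, LOC105606646 in subcutaneous fat of prenatal T sheep was at -1.82 (adjusted p = 0.0557), and the block alone (-2.07, adjusted p = 0.0217) changed no call. The epicardial differences were not called without a filter, 2.19 for LOC114109215 (adjusted p = 0.0718) and 1.83 for LOC114109206 (adjusted p = 0.0690), nor among early libraries (0.89 and 1.25). With all 32 libraries of the T cohort, which include the controls that chose the features, LOC114109215 was at 2.19 (adjusted p = 0.0719).

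Calls gained in prenatal T sheep were LOC105606646 in visceral minus subcutaneous fat, at 2.43 with CPM of the class and 1.78 with DESeq2. With all 32 libraries it was at 1.61 (adjusted p = 0.0457). That fit takes in the controls that chose the features, so it is not counted as a call. In visceral fat minus the others the calls gained were LOC114109215 with edgeR (1.54) and LOC114109206 with edgeR (1.41) and DESeq2 (1.49). With all 32 libraries LOC114109206 was at 1.18 there, likewise not counted as a call. In visceral minus subcutaneous fat of BPA sheep LOC114109215 was called with a set term (2.06) and with set term and block (1.78). Among later libraries it was at 2.20 and LOC114109206 at 2.24. LOC114109206 falls under the filter in the whole BPA cohort, so its 2.24 is given without a test. It passed among later libraries, where its highest levels were those in visceral fat of BPA sheep (16.97, 14.2 and 6.3). In BPA-cohort controls LOC114109206 moved to 0.81 among later libraries, where visceral fat has the single library of sheep 902. Over the alternatives other than leaving out a sheep, the adjusted p ran from 8.39e-05 to 0.0557 for LOC105606646 in subcutaneous fat, from 0.000439 to 0.451 and from 0.000397 to 0.334 for LOC114109215 and LOC114109206 in epicardial fat, and from 0.0270 to 0.584 for LOC105606646 in visceral minus subcutaneous fat of prenatal T sheep. It ran from 0.00861 to 0.744 for LOC114109215 in visceral minus subcutaneous fat of BPA sheep.

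DESeq2 called more features than limma in prenatal T sheep, with 8 against 2 lncRNAs and 23 against 9 snoRNAs in subcutaneous fat, 8 against 4 lncRNAs in epicardial fat and 42 against 15 snoRNAs in visceral minus subcutaneous fat. With edgeR these counts were 3, 10, 6 and 26. In visceral minus subcutaneous fat of BPA sheep DESeq2 called 9 lncRNAs, against 3 with limma and 3 with edgeR.

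With 1 sheep left out the ranges were -2.29 to -1.82 for LOC105606646 in subcutaneous fat (called in 1 of 4 fits), 1.53 to 2.76 for LOC114109215 (1 of 4) and 1.55 to 2.11 for LOC114109206 (1 of 4) in epicardial fat of prenatal T sheep. The cause was not tested. The 406 other values from the alternatives kept their direction where called, and their side of the threshold where both fits gave a test. LOC114109206 had no main test in the BPA cohort. The within-set, set-and-block and snoRNA-subtracted fits and the set term for other RNAs of the locus were added after seeing the data, and a within-set fit leaves 1 visceral library in 1 group, taken to vary like the others. Depth limits LOC114109206 most: 5 of 32 and 5 of 16 libraries held 0 reads of it.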
